A study of Mus musculus with 12 samples.

Results

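The oxidative phosphorylation subunit genes of mouse heart were read on 12 Affymetrix MOE430A arrays. They were taken as every probe set annotated to 1 gene whose symbol begins with Nduf, Sdha to Sdhd, Uqcr, Cox4 to Cox8 or Atp5. The rule gave 160 probe sets for 87 genes, of 22690 probe sets in all, and used no measured value. A probe set is a group of short probes that reads 1 stretch of a transcript, and its signal is a relative brightness. Of these, 151 probe sets for 86 genes were bright enough to test, with a scaled signal that averaged 100 or more. The 86 genes were 33 of complex I, 4 of complex II, 8 of complex III, 15 of complex IV, 17 of complex V and 9 assembly factors or regulators. Cox6b2 was the gene left untested, and 8 further probe sets that name several genes were not used.

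Heart muscle came from wild-type controls and from mdx mice, a model of Duchenne muscular dystrophy whose mutated Dmd gene leaves muscle without full-length dystrophin. Both genotypes were taken at 8 weeks and at 10.5 months, which makes 4 groups of 3 arrays. No treatment is named for any group, and neither strain nor sex is given. The labels do not say that the 3 arrays of a group came from separate animals, so the p-values measure the spread between arrays, which may be technical.

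Oxidative phosphorylation is the last stage of aerobic energy supply and takes place in the inner membrane of the mitochondrion. Complexes I and II pass electrons from NADH and succinate to ubiquinone, complex III passes them on to cytochrome c, and complex IV hands them to oxygen. Complexes I, III and IV pump protons meanwhile, and complex V, the ATP synthase, lets the protons flow back to make ATP. The heart depends on this pathway for nearly all of its ATP, and the transcripts of its subunits are among the most abundant of cardiac muscle. Nuclear genes, which are the only ones covered here, encode most subunits, while a small set is encoded in mitochondrial DNA.

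Promoters of these genes are known for sites of the factors NRF1, GABP (an ETS factor), YY1 and ERR, so the letters of those sites were searched on both strands in RefSeq promoter windows (build GRCm38.p6, 250 bases before to 50 bases after each start). Of the 87 genes, 73 had a window. The ETS letters CCGGAAG lay in 27.4% of those genes, against 19.4% of the 7173 tested array genes with a window and 9.93% of all 27025 genes in the table. The YY1 letters AAGATGGC lay in 12.3%, against 5.31% and 3.19%. The full NRF1 site, a palindrome that is the capitals of the Atp5g2 line without their last A, lay in 8.22%, against 2.29% and 1.07%. The shorter TGCGCA lay in 24.7%, against 15.9% and 8.79%. It overlaps the full form where a further A follows that form or a T precedes it. The ERR letters TCAAGGTCA lay in 2.74%, which is 2 genes, against 0.349% and 0.466%. Sp1 letters (GGGCGG) and CCAAT lay in 46.6% and 39.7%, against 68.2% and 42.4% of the tested array genes. These shares describe letters in a window and say nothing of binding. The 120 bases before the start are given for the 3 complex II genes with an entry, on which the comparison by complex turns, for Ndufs4, the member that passed the test between mdx and control hearts, and for Atp5g2 and Atp5j as examples that hold the NRF1, YY1 and ETS letters. Capitals mark matches to the NRF1, ETS, YY1 and ERR letters on either strand.
Sdha, chr13:74350241-74350360, minus strand: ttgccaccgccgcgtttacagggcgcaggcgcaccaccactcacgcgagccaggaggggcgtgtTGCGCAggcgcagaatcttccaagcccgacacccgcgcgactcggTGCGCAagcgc
Sdhb, chr4:140961151-140961270, plus strand: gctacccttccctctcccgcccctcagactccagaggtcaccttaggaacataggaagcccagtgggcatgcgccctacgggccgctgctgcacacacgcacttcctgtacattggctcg
Sdhd, chr9:50603850-50603969, minus strand: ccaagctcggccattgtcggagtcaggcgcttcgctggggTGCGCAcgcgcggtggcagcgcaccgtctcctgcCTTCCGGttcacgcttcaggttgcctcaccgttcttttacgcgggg
Ndufs4, chr13:114388095-114388214, minus strand: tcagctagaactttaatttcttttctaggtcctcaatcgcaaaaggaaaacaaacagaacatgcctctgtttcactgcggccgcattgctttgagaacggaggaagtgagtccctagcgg
Atp5g2, chr15:102671048-102671167, minus strand: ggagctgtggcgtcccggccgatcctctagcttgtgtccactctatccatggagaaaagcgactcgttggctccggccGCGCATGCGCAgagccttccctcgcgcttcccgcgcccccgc
Atp5j, chr16:84834977-84835096, minus strand: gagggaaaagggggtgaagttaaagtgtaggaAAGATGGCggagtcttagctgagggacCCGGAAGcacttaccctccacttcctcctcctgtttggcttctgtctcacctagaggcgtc
Sdha holds TGCGCA at 2 places, Sdhd holds TGCGCA and the ETS letters, and the Sdhb and Ndufs4 windows hold none of these letters in this stretch.

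The arrays did not spread their signal equally. The deposited 99th percentile ran from 27563 to 32810 on 8 arrays and from 40770 to 53154 on the other 4, which were control replicate 2 and mdx replicates 1 and 2 at 8 weeks and mdx replicate 3 at 10.5 months. The members made up 25.1% to 29.5% of the probe sets above that percentile, so it is not independent of them. Without the members it ran from 34004 to 41164 on the same 4 arrays and from 24117 to 27827 on the other 8, so the order of these 4 above the rest held while only 1 of them passed 40000. These 4 are called the arrays of wide range, and the medians below are given with and without them. All arrays had been scaled to a common trimmed mean, and the values called scaled keep that scaling only. Quantile normalization gives every array the same distribution of values, which removes the difference in range. Dmd itself was lower in mdx hearts at both ages, by -1.42 and -1.63 on the log2 scale for its brighter probe set (limma, adjusted p 0.00596 and 0.012). The labels also carry a keyword for extraocular muscle beside a source and titles that name heart. All 9 ventricular markers were present on the arrays, while of 13 fast skeletal and extraocular muscle markers 2 reached a mean signal of 100, Ckm and Atp2a1, and the fast myosins Myh1, Myh2 and Myh4 stayed below it. The summed signal of the ventricular markers ran from 133495 to 265787 in 8-week controls and from 119573 to 374999 in 8-week mdx hearts. It ran from 127100.0 to 154839 and from 148899 to 193333 at 10.5 months. Summed markers of other cells differed with genotype as well. The 10 fibroblast markers summed to 23124 to 25991 in mdx against 17691 to 21447 in control hearts at 8 weeks, but none of the 10 was apart by itself, and without Dcn and Col3a1 the sums overlapped. At 10.5 months they summed to 24674 to 33759 against 21338 to 22188, and 5 of 10 were higher on all mdx arrays. The 7 measured of 8 atrial markers summed to 12097 to 13185 in mdx against 4813 to 6843 in control hearts at 8 weeks, most of it from Nppa, with Nppa, Myl7 and Sln higher on all mdx arrays, Tbx5 lower and the other 3 overlapping. At 10.5 months all 7 overlapped. Myl7, Sln, Myl4, Dkk3 and Bmp10 were then highest on control replicates 1 and 2, while Nppa and Tbx5 were not. Myl7 read 3554, 2216 and 131 on control and 270, 151 and 284 on mdx arrays. Sln read 2242, 1220 and 9 on control and 26, 12 and 92 on mdx arrays. Without Nppa the sums ran from 833 to 10608 in control and from 681 to 1600 in mdx hearts. Each of the fibroblast and atrial markers had a mean signal of at least 100, and their part in the results below was not tested. In a tissue extract, fewer cells of a type and less RNA per cell cannot be told apart.

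The complexes were also read array by array. Since members are among the bright probe sets that set the signal range, their order by range is a description and in part how the arrays were chosen. The level of a complex on an array was taken as the median over its genes of the log2 signal minus the gene's mean over the 12 arrays. For all 86 genes, the scaled level was -0.24, 0.45 and -0.13 on the control arrays at 8 weeks and 0.63, 0.43 and -0.40 on the mdx arrays. At 10.5 months it was -0.32, -0.17 and -0.21 on the control arrays and -0.19, -0.09 and 0.28 on the mdx arrays. The 4 highest arrays were the 4 of wide range, and so they were for complexes I, III, IV and V taken alone. For complex II, 3 of its 4 highest arrays were among them. After quantile normalization the same level ran from -0.05 to 0.12 over all 12 arrays, a range of 0.16 in place of 1.03. Complex II kept the widest range of the 5 complexes, 0.42. Its quantile-normalized level was 0.22, 0.13 and 0.21 on the control arrays and 0.01, 0.20 and -0.15 on the mdx arrays at 8 weeks. At 10.5 months it was -0.12, -0.01 and 0.10 on the control arrays and -0.05, -0.14 and -0.21 on the mdx arrays, so the older controls lay below the younger ones without overlap. mdx replicate 3 at 8 weeks was the lowest array for every one of the 5 complexes on the scaled values. The assembly factors and regulators, which are dimmer, did not share this order, with 1 array of wide range among their 4 highest.

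**Figure D1:**
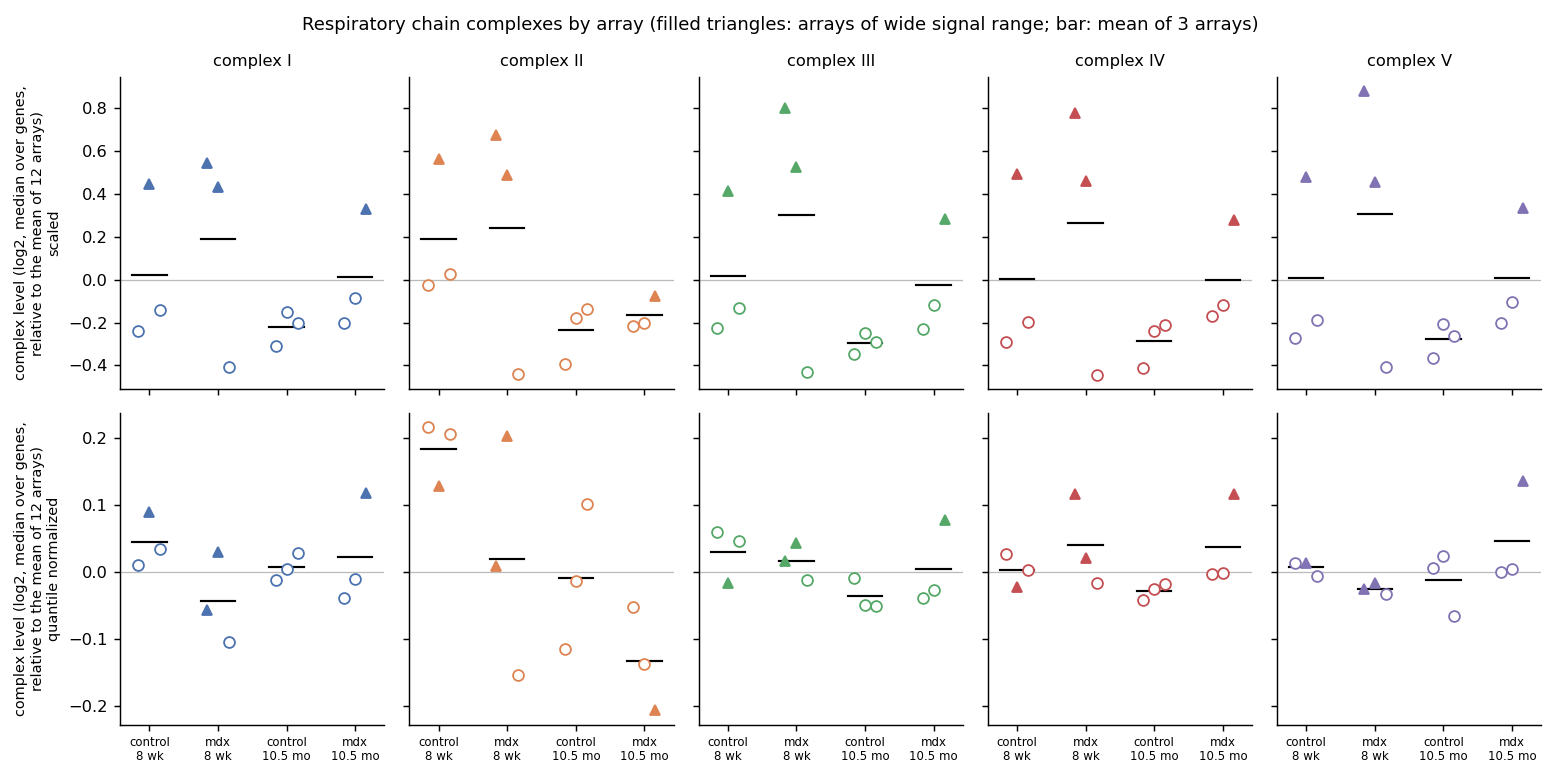
Level of complexes I to V on each of the 12 arrays in log2 units, as the median over the genes of the complex relative to the mean of all arrays, for scaled values in the upper row and quantile-normalized values in the lower row, whose axis spans a smaller range. Filled triangles are the 4 arrays of wide signal range, open circles the other 8, and bars the mean of 3 arrays; the triangles lie on top in the upper row, where all 4 are the highest arrays for every complex except II.

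At 8 weeks the subunit genes of mdx hearts read slightly higher than those of controls on the scaled values and slightly lower after quantile normalization, and almost none passed the test. The median log2 difference over the 86 genes was 0.19, and 73 of them (84.9%) were above 0, against a median of -0.01 and 48.3% over all 8852 genes tested. After quantile normalization the median was -0.05, with 32 genes (37.2%, against 47.8% of all) above 0, and 45 of the 86 genes changed sign between the scalings. By complex, the scaled medians were 0.15 for complex I, 0.10 for II, 0.25 for III, 0.28 for IV and 0.29 for V, and -0.05 for the assembly factors and regulators. The quantile-normalized medians in that order were -0.06, -0.20, -0.03, 0.03, -0.05 and 0.01. Within arrays of narrow range, which leaves mdx replicate 3 against control replicates 1 and 3, the scaled median was -0.21 and 10 of 86 genes were above 0. Within those of wide range, mdx replicates 1 and 2 against control replicate 2, it was 0.11 with 59 genes above 0. The scaled median thus turned with the arrays compared, and without mdx replicate 1 it was -0.01, without mdx replicate 3 it was 0.49.

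Of 151 member probe sets, 1 passed the test at 8 weeks on the scaled values, while 2.3% of all probe sets tested did (limma, Benjamini-Hochberg adjusted p below 0.05). It belonged to Ndufs4, an accessory subunit of complex I. The dimmest of its 3 probe sets read 375, 398 and 427 on the control arrays and 152, 216 and 299 on the mdx arrays at 8 weeks. At 10.5 months it read 399, 352 and 437 on control and 357, 386 and 387 on mdx arrays. The young mdx arrays were the lowest 3 of the 12, without overlap. The difference at 8 weeks was -0.80 ± 0.19 (log2 ± SE, limma adjusted p 0.0474), and -0.86 after quantile normalization (adjusted p 0.0251). The call held in 7 of 23 alternative settings, with adjusted p from 0.0148 to 0.292. The brightest Ndufs4 probe set gave -0.08 ± 0.18 (adjusted p 0.852), with 4721, 6105 and 5377 on control and 5433, 5602 and 4269.8 on mdx arrays. Its groups overlapped, so the fall was read by 1 of 3 Ndufs4 probe sets. At 8 weeks all mdx arrays lay below all control arrays in 3 of 151 member probe sets (1.99%), against 10.1% of all. They all lay above in 6 (3.97%), against 9.51%. After quantile normalization these shares were 13.9% below, against 10.8%, and 7.95% above, against 9.82%.

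After quantile normalization, 3 member probe sets passed at 8 weeks, against 3.05% of all. Besides Ndufs4 they were Atp5pb, subunit b of the stalk that holds the ATP synthase together, and Cox5a, a nuclear subunit of cytochrome c oxidase, both higher in mdx. Atp5pb read 9474, 12626 and 9211 on control arrays and 26661, 19490.2 and 12072 on mdx arrays in scaled signal. Its lowest mdx array lay below its highest control array. The quantile-normalized difference was 0.52 ± 0.12 (limma adjusted p 0.0361) and the scaled one 0.83 ± 0.24 (adjusted p 0.0918). The dimmest of 3 Cox5a probe sets read 7331, 7704 and 6409 on control and 17439, 14068 and 9467 on mdx arrays, without overlap. The quantile-normalized difference was 0.66 ± 0.16 (limma adjusted p 0.0438), while its brightest probe set gave 0.12 ± 0.11 (adjusted p 0.613). At 10.5 months the differences of these probe sets were -0.18 ± 0.12 and -0.06 ± 0.16. Each was called at 8 weeks in 2 of 23 alternative settings, with limma adjusted p up to 0.273 for Atp5pb and 0.281 for Cox5a. The Atp5pb probe set ends in _s_at and the Cox5a one in _x_at, types that can bind related transcripts.

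The remaining complexes held no called probe set at 8 weeks, and no extreme on the scaled values passed the test. Ndufa4, which despite its name is counted with complex IV, stood highest there at 0.58 ± 0.34, and Uqcrb, a small subunit of complex III, at 0.51 ± 0.34. Ndufa12 was the highest gene of complex I at 0.40 ± 0.26 and Ndufb1 the lowest at -0.11 ± 0.20. Uqcr10 at 0.08 ± 0.34, Cox7c at -0.04 ± 0.19 and Atp5g2 at 0.02 ± 0.20 were the lowest of complexes III, IV and V. Sdhaf1, an assembly factor of succinate dehydrogenase, was the lowest of all 86 genes by the brightest probe set, at -0.66 ± 0.21 (limma adjusted p 0.13); it was named after its values were seen.

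**Figure D2:**
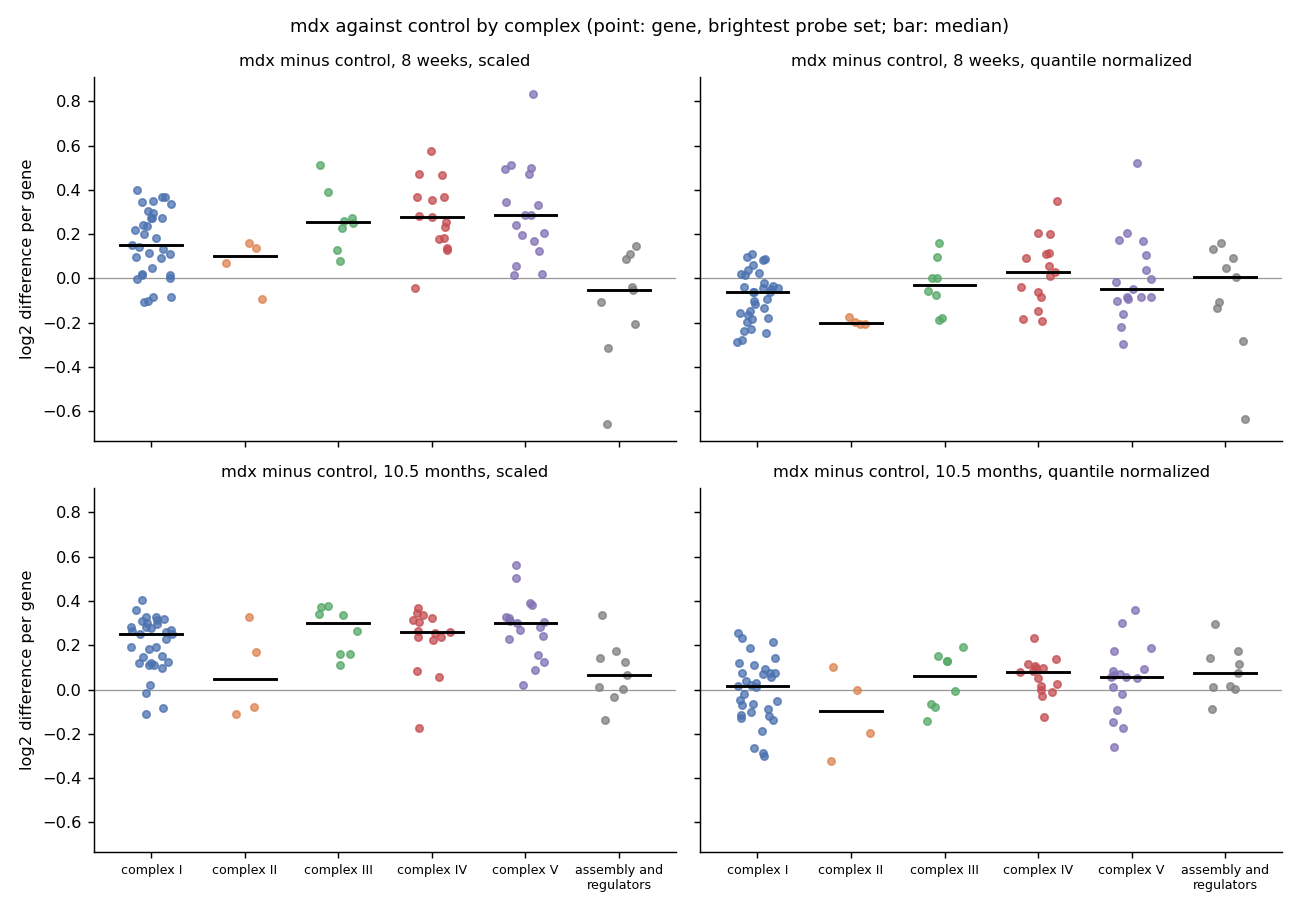
Log2 difference between mdx and control hearts for each of the 86 genes by its brightest probe set, at 8 weeks in the upper row and 10.5 months in the lower row, scaled on the left and quantile normalized on the right, with bars at the median of each complex. At 10.5 months all 8 genes of complex III and all 17 of complex V are above 0 on the scaled values, while the quantile-normalized points scatter around 0.

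At 10.5 months the subunit genes of complexes I, III, IV and V read higher in mdx than in control hearts by a small amount that many genes shared, and no single one passed the test. The scaled median over the 86 genes was 0.25, with 78 (90.7%) above 0, against -0.02 and 46.1% over all genes tested. By complex the medians were 0.25 for I, 0.30 for III, 0.26 for IV and 0.30 for V, with 30 of 33, 8 of 8, 14 of 15 and 17 of 17 genes above 0. Complex II stood at 0.05 with 2 of 4 genes above 0, and the assembly factors and regulators at 0.07. After quantile normalization the median over all members was 0.05 with 54 genes (62.8%, against 50.8% of all) above 0, and by complex it was 0.02, -0.10, 0.06, 0.08 and 0.06 for I to V. Without mdx replicate 3, the 1 array of wide range at this age, the scaled median was 0.11, and 66 of 86 genes were still above 0. On the quantile-normalized values of those 5 arrays it was 0.01, with 46 genes above 0. The scaled difference was thus larger with mdx replicate 3 than without it, and smaller after quantile normalization than before.

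No member probe set of the 151 passed at 10.5 months under either scaling, where 0.0469% of all probe sets passed on the scaled and 0.0402% on the quantile-normalized values (limma, Benjamini-Hochberg). At an unadjusted p below 0.05 there were 2 higher and 0 lower among the members on the scaled values, against 2.68% and 4.69% of all. In 38 of the 151 probe sets (25.2%) the 3 mdx arrays all lay above the 3 control arrays, against 7.51% of all probe sets tested, and in 1 (0.662%) all lay below, against 10.6%. After quantile normalization these shares were 9.27% against 8.32%, and 5.96% against 9.29%. The 38 probe sets read 32 genes, and 14 of them, for 13 genes, were also apart after quantile normalization. Those 13 genes were Ndufa3, Ndufa7, Ndufb3, Ndufs4 and Ndufs8 of complex I, Uqcr10 of complex III, Cox6a1 and Cox8a of complex IV, Atp5e, Atp5g3, Atp5l and Atp5md of complex V, and Cox7a2l, a factor that joins complexes III and IV. Complex II had none. The share of all probe sets apart on both scalings was not computed, so the count of 14 is not read as a result about the members.

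Atp5md, a small subunit that helps ATP synthase pair into dimers, showed the largest difference at this age among the genes' brightest probe sets. It read 9972, 11147 and 7384 on control and 11150.0, 11822 and 20058 on mdx arrays, and mdx replicate 3 stood well above the rest. Its quantile-normalized log2 levels were 13.58, 13.61 and 13.03 against 13.61, 13.63 and 14.06, still without overlap. The difference was 0.56 ± 0.24 (limma adjusted p 0.666). Atp5l, subunit g of the same membrane part, gave 0.50 ± 0.26 scaled and 0.30 ± 0.14 quantile normalized. Uqcr10, a small subunit of complex III, read 7317, 7531 and 6994 on control and 8099, 8719.8 and 12012 on mdx arrays, also without overlap, for a difference of 0.38 ± 0.34. In complex I the extremes were Ndufb2 at 0.40 ± 0.29 and Ndufs1, the largest core subunit and carrier of iron-sulfur clusters, at -0.11 ± 0.21. Uqcrc1 at 0.11 ± 0.29, Cox8c at -0.18 ± 0.15 and Atp5a1, the alpha subunit of the catalytic head, at 0.02 ± 0.30 were the lowest of complexes III, IV and V. Atp5a1 was at -0.26 ± 0.15 after quantile normalization, so its sign depended on the scaling.

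The members are bright. On the scaled values, the median difference of the other probe sets varied over 10 classes of mean signal without a steady rise. At 8 weeks it was 0.11 in the dimmest class and -0.11 in the class next to the brightest. At 10.5 months it was -0.004 and -0.03 in these classes. Of the 151 member probe sets, 124 lay in the brightest 10% of all probe sets tested. The other probe sets of that class had a median difference of 0.06 at 8 weeks, against 0.22 for the members in it, and 0.07 at 10.5 months, against 0.26. After quantile normalization the pairs were -0.02 and -0.05 at 8 weeks, and -0.03 and 0.05 at 10.5 months. On the scaled values the members thus differed by more than the other probe sets of that class at both ages. After quantile normalization they lay below them at 8 weeks and above them at 10.5 months. The class spans mean signals from 2162 to 34163, and the median member gene stood at 12098. Members and others in it were not matched for brightness. The sarcomere genes given below had a larger scaled median than the members at 8 weeks and a smaller one at 10.5 months. The part of brightness in these values was not tested.

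**Figure D3:**
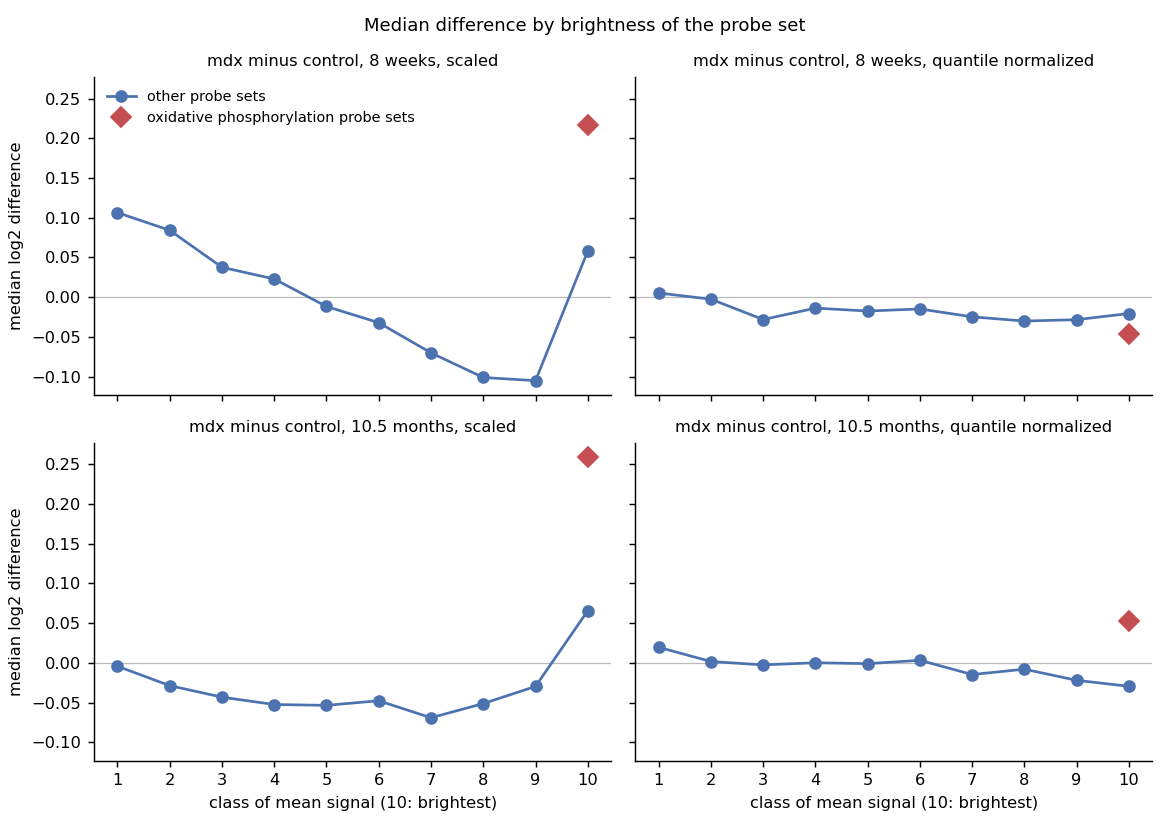
Median log2 difference between mdx and control arrays in each of 10 classes of mean signal, for the probe sets that are no members (line) and for the 124 members of the brightest class (diamond), at 8 weeks and 10.5 months, scaled and quantile normalized. The diamonds lie at 0.22 and 0.26 on the scaled values and at -0.05 and 0.05 after quantile normalization.

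The difference between the mdx effects at both ages was tested directly, and no member probe set passed it, against 0.154% of all probe sets on the scaled and 0.201% on the quantile-normalized values (limma, Benjamini-Hochberg). At an unadjusted p below 0.05, 2 members were higher and 2 lower on the scaled values, against 5.11% and 7.03% of all. The median over member genes was 0.02 scaled and 0.05 quantile normalized.

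With age, control hearts read lower for most subunit genes on the scaled values and for fewer of them after quantile normalization. Of the 5 complexes, II had the lowest median on both scalings. No test of one complex against another was made. The scaled median at 10.5 months against 8 weeks was -0.25 over the 86 genes, with 10 (11.6%) above 0, against 0.01 and 50.9% over all genes tested. By complex it was -0.25 for I, -0.42 for II, -0.35 for III, -0.29 for IV and -0.26 for V, and -0.03 for the assembly factors and regulators. After quantile normalization it was -0.05, -0.26, -0.13, -0.04, 0.00 and -0.08 in that order. Over all members it was then -0.04, with 35 genes (40.7%, against 48.1% of all) above 0, and 27 of the 86 changed sign between the scalings. In the brightest 10% of probe sets, the members had a scaled median of -0.25, against -0.09 for the others. After quantile normalization both stood at -0.01. Without control replicate 2 at 8 weeks, the array of wide range, the scaled median over all members was -0.06 and that of complex II -0.26. This comparison uses the same control arrays as the mdx comparisons, so the 3 are not independent.

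No member probe set passed the test for age in controls on either scaling, against 0.147% of all on the scaled and 0.161% on the quantile-normalized values (limma, Benjamini-Hochberg). At an unadjusted p below 0.05, 0 were higher and 5 lower, against 7.3% and 4.88% of all. In 31 of 151 probe sets (20.5%) all 3 older control arrays lay below all 3 younger ones, against 10.5% of all probe sets tested, and in 2 (1.32%) above, against 12.2%. After quantile normalization, 34 (22.5%) lay below, against 12%, and 15 (9.93%) above, against 11.3%. The share of all probe sets that lay below on both scalings was not computed, so the next count is not read as a result about the members. Of the member probe sets, 25, for 23 genes, lay below on both scalings. They included Sdha (by its second probe set), Sdhc and Sdhd of complex II, Ndufs3, Ndufs7 and Ndufv1, core subunits of complex I, Uqcr10 of complex III, Cox4i1, Cox6a1, Cox6b1, Cox7a2 and Cox8a of complex IV, and Atp5a1, Atp5d, Atp5g2, Atp5l and Atp5o of complex V. Other genes went the opposite way without passing the test, and Atp5md was the highest at 0.40 ± 0.24, followed in complex IV by Cox7a1 at 0.07 ± 0.23. The lowest gene of each complex was Sdhd at -0.56 ± 0.25, Uqcr10 at -0.53 ± 0.34, Cox8a at -0.49 ± 0.24, Atp5g1 at -0.44 ± 0.34 and Ndufs7 at -0.43 ± 0.27.

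Succinate dehydrogenase, complex II, is both an enzyme of the citric acid cycle and an entry point of electrons, and it is built from Sdha (the flavoprotein), Sdhb (the iron-sulfur protein) and the membrane anchors Sdhc and Sdhd. Sdhc read 5594, 5994 and 6495 on the control arrays at 8 weeks and 3790.2, 4243 and 4845 at 10.5 months, without overlap. On mdx arrays it read 5787, 6381 and 4837 at 8 weeks and 3744, 3468 and 4769 at 10.5 months, again without overlap. The age difference was -0.49 ± 0.17 in controls (limma adjusted p 0.273) and -0.51 ± 0.17 in mdx hearts (adjusted p 0.0667). Quantile normalization gave -0.43 and -0.42, so both the direction and the size were kept, but neither difference passed the threshold. The dimmer Sdhc probe set did not share the pattern, at -0.08 ± 0.23 in controls and 0.34 ± 0.23 in mdx hearts.

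Sdhd read 11068, 14911 and 9816 on control arrays at 8 weeks and 7521, 9069 and 7415 at 10.5 months, without overlap. The difference was -0.56 ± 0.25 scaled and -0.40 ± 0.14 quantile normalized (limma adjusted p 0.389 and 0.266). Sdha read 11385, 19077 and 13755 against 10702, 11628 and 11673, and control replicate 1 at 8 weeks lay below the highest older array, so the groups overlapped. Its difference was -0.35 ± 0.28 scaled and -0.12 ± 0.15 quantile normalized. The dimmer Sdha probe set did not overlap and gave -0.32 ± 0.24. Sdhb read 16220.0, 32805 and 19409 against 15863, 17629.7 and 19449, with overlap, and its difference went from -0.31 ± 0.34 to -0.02 ± 0.12 under quantile normalization. Between mdx and control hearts at 8 weeks, the 4 genes gave -0.17, -0.20, -0.21 and -0.21 for Sdha, Sdhb, Sdhc and Sdhd after quantile normalization. All 4 were below 0 there, while 3 of 4 were above 0 on the scaled values. At 10.5 months the same order was -0.32, 0.10, -0.20 and -0.00. Sdha was the one with mdx arrays all below control arrays then, at 13.56, 13.53 and 13.11 against 13.71, 13.69 and 13.77 in quantile-normalized log2 signal. Its difference of -0.32 ± 0.15 did not pass the test (limma adjusted p 0.657).

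**Figure D4:**
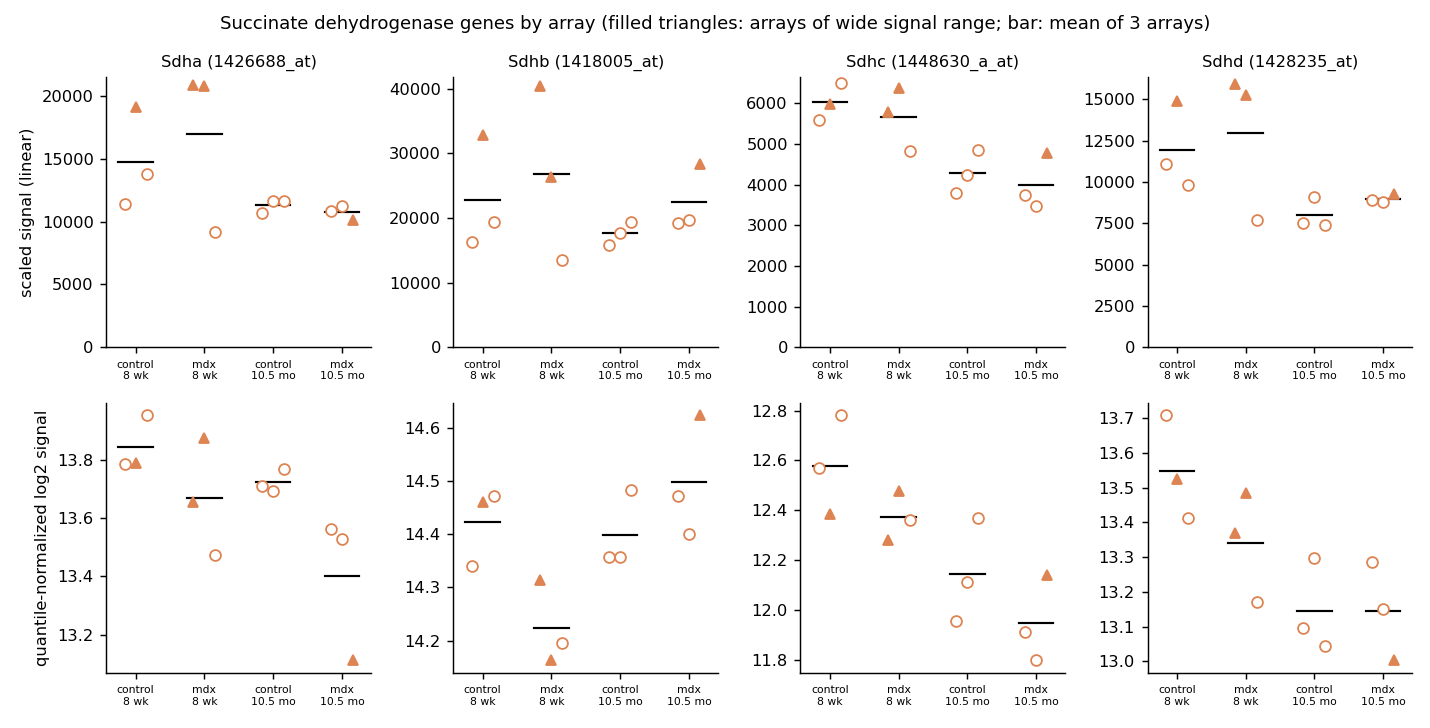
Signal of the 4 complex II genes on each array by the brightest probe set, as scaled signal on a linear axis from 0 in the upper row and quantile-normalized log2 signal in the lower row, with a bar at the mean of 3 arrays and filled triangles for the arrays of wide signal range. The older control arrays of Sdhc lie at 3790 to 4845, below the younger ones at 5594 to 6495, on both scales.

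In mdx hearts, the scaled medians of the 5 complexes lay in the same direction with age as in controls. More probe sets passed the test over the whole array. The median over the 86 genes was -0.27 scaled and 0.04 quantile normalized, against -0.01 and 0.01 over all genes tested. By complex it was -0.22, -0.48, -0.31, -0.32 and -0.34 for I to V scaled, and 0.07, -0.23, 0.00, -0.01 and 0.04 quantile normalized. Of the 5 complexes, II was thus again the lowest on both. The assembly factors and regulators went the opposite way, at 0.21 scaled, with 7 of 9 genes above 0, and 0.11 quantile normalized. The arrays of narrow range leave mdx replicates 1 and 2 at 10.5 months against replicate 3 at 8 weeks. Within them the scaled median over the 86 genes turned to 0.27, and that of complex II to 0.23. All older mdx arrays lay above all younger ones in 7 member probe sets (4.64%) on the scaled values, against 14.7% of all. They all lay below in 11 (7.28%), against 15.5%. After quantile normalization these shares were 14.6% above, against 15.9%, and 12.6% below, against 15.6%. Of the 151 member probe sets, 2 passed on the scaled and 9 on the quantile-normalized values, against 11.4% and 13.1% of all (limma, Benjamini-Hochberg). Without mdx replicate 3 at 8 weeks, 25 (16.6%) passed on the scaled values, against 12.6% of all.

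The 2 that passed on the scaled values were Ndufs4 and Ndufs8. The dimmest Ndufs4 probe set rose by 0.72 ± 0.19 (limma adjusted p 0.0285), from the low young mdx arrays given above. Ndufs8 encodes a core subunit of complex I with iron-sulfur clusters, and the dimmest of its 6 probe sets read 1109, 1322 and 818 on mdx arrays at 8 weeks and 614, 566 and 469 at 10.5 months, without overlap. It fell by 0.92 ± 0.18 on the log2 scale (limma adjusted p 0.00992), a call kept in 22 of 23 alternative settings, and in controls the difference was -0.43 ± 0.18 (adjusted p 0.363). The 5 other Ndufs8 probe sets went the opposite way. The brightest gave 0.33 ± 0.25 scaled, and 0.52 ± 0.12 quantile normalized, which passed (limma adjusted p 0.0164). Its signal was 12690.0, 12116 and 7062 at 8 weeks and 11104, 12146 and 16103 at 10.5 months, so the groups overlapped on the scaled values. The next brightest also passed after quantile normalization, at 0.49 ± 0.12 (limma adjusted p 0.0241). The probe sets of Ndufs8 thus gave opposite directions on these arrays.

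The other probe sets that passed after quantile normalization were Atp5md, Sdhaf4, Ndufb5, Sdhd and Cox5a. Atp5md read 6729, 10112 and 7872 on mdx arrays at 8 weeks and 11150.0, 11822 and 20058 at 10.5 months, without overlap, and rose by 0.88 ± 0.24 (limma adjusted p 0.034). Sdhaf4, an assembly factor of complex II, rose by 0.54 ± 0.16 (adjusted p 0.0433; limma). Ndufb5, by its dimmer probe set and of the membrane arm of complex I, fell by 0.49 ± 0.13, and the dimmest Cox5a probe set fell by 0.57 ± 0.16. The dim Sdhd probe set fell by 0.77 ± 0.22, while the bright one gave -0.20 ± 0.14. On the scaled values these 5 had limma adjusted p from 0.055 to 0.0643 and were not called.

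**Figure D5:**
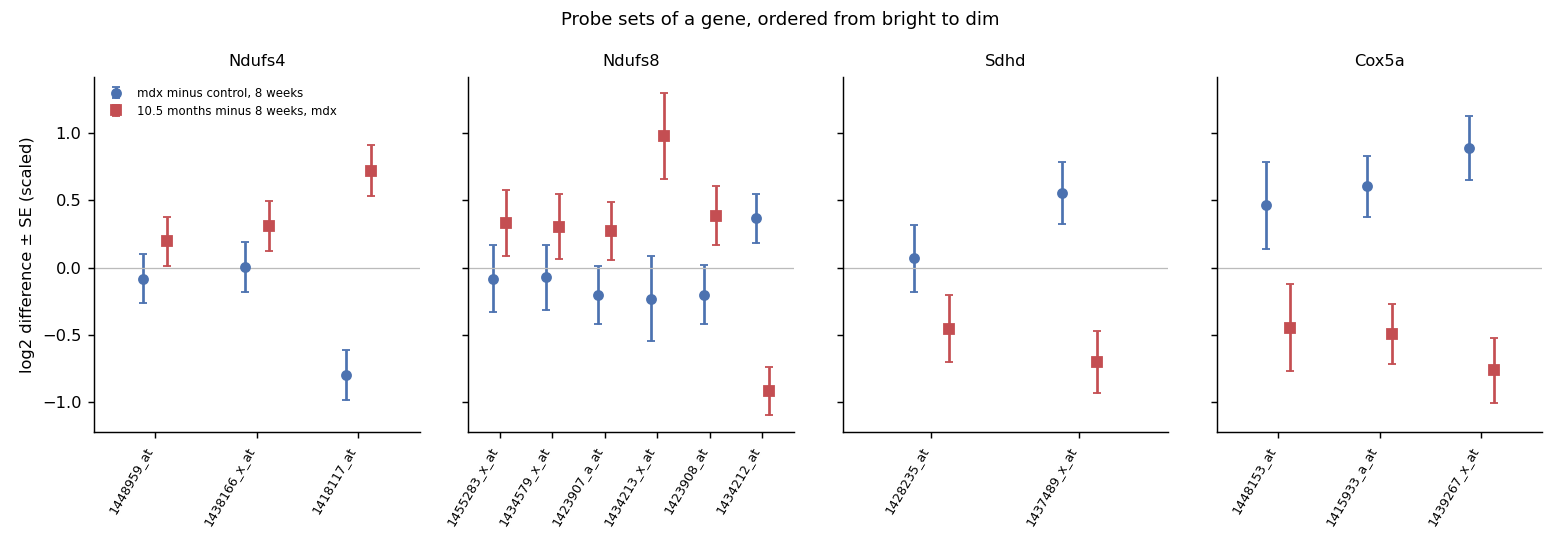
Log2 difference ± SE on the scaled values for each tested probe set of Ndufs4, Ndufs8, Sdhd and Cox5a, ordered from bright to dim, for mdx minus control at 8 weeks (circles) and 10.5 months minus 8 weeks in mdx hearts (squares). The dimmest probe set of Ndufs4 stands apart at -0.80 and that of Ndufs8 at -0.92, on the other side of 0 from the remaining Ndufs8 probe sets.

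Agreement between probe sets of a gene could be read for 44 genes with at least 2 tested. On the scaled values the brightest and the next brightest had the same sign in 35 genes for mdx at 8 weeks, 38 for mdx at 10.5 months, 36 for age in controls and 33 for age in mdx hearts. After quantile normalization the counts were 26, 32, 28 and 27. Probe sets of a gene share the arrays and often the sequence read, so they are not replicates. Of the tested probe sets, 26 end in _x_at and 17 in _s_at, which by the maker's naming can bind related transcripts, so their values may mix genes of a family.

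Complex IV has subunits with a heart and muscle form and a form found in most tissues, and the pairs were compared within each gene across groups. Cox6a2, the muscle form of subunit 6a, differed by 0.18 ± 0.32 at 8 weeks and 0.24 ± 0.32 at 10.5 months between mdx and control hearts. Cox6a1, the general form, differed by 0.23 ± 0.25 and 0.26 ± 0.25. For subunit 7a, the muscle form Cox7a1 gave 0.18 ± 0.23 and 0.24 ± 0.23, and the general form Cox7a2 0.28 ± 0.30 and 0.34 ± 0.30. None of these passed the test. All were above 0 on the scaled values, but after quantile normalization Cox6a2 was at -0.19 and -0.01, Cox6a1 at 0.06 and 0.10, Cox7a1 at -0.06 and -0.00, and Cox7a2 at -0.04 and 0.10. Cox8b, the muscle form of subunit 8, read 15099.7, 16914 and 16137 on control and 17519, 18314 and 27539 on mdx arrays at 10.5 months, and Cox8a 4007, 4526 and 4050.0 and 4884, 4888 and 5958. In both, all mdx arrays lay above all control arrays on the scaled values, with differences of 0.37 ± 0.31 and 0.32 ± 0.24 that did not pass the test (limma adjusted p 0.834 and 0.806). After quantile normalization the differences were 0.14 ± 0.14 and 0.23 ± 0.15. Cox8a, unlike Cox8b, was among the genes apart on both scalings. At 8 weeks Cox8b changed sign with the scaling, from 0.13 to -0.18. For subunit 4, Cox4i1 gave 0.28 ± 0.33 at 8 weeks and 0.31 ± 0.33 at 10.5 months scaled, and -0.08 and 0.05 quantile normalized. Cox4i2, a form known from lung and low-oxygen settings, was dim and read 307, 240.4 and 236 on control and 363, 323 and 337 on mdx arrays at 8 weeks. Its mdx arrays were all higher, for a difference of 0.35 ± 0.15 on both scalings that did not pass (limma adjusted p 0.24). With age in controls, Cox8a gave -0.49 ± 0.24 and Cox8b -0.31 ± 0.31 scaled, and -0.41 and -0.01 quantile normalized. Cox7a2 gave -0.36 ± 0.30 and Cox7a1 0.07 ± 0.23 scaled, and -0.05 and 0.29 quantile normalized.

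The genes that surround the chain were read beside the whole array, where few genes passed between mdx and control hearts. Of all 8852 genes tested on the scaled values, 105 were called higher and 85 lower in mdx at 8 weeks. At 10.5 months 2 were called higher and 4 lower. Of 15 measured electron carriers outside the rule, Gpd2, the mitochondrial glycerol phosphate dehydrogenase that feeds electrons to ubiquinone, fell by 0.84 ± 0.20 at 8 weeks (limma adjusted p 0.0474), and by 0.96 after quantile normalization (adjusted p 0.0159). Its scaled signal was 204.5, 169.5 and 230.3 on control and 106.6, 71.3 and 119.7 on mdx arrays, without overlap. The list's median at 8 weeks was 0.00 scaled and -0.13 quantile normalized, and no other of its genes passed. None of 27 assembly factors outside the rule, 23 regulators of mitochondrial biogenesis, 19 citric acid cycle and pyruvate dehydrogenase genes, 11 transport and creatine kinase genes, 27 inner membrane and import genes and 20 sarcomere genes passed at either age between mdx and control hearts (limma, Benjamini-Hochberg). The smallest p-values at 8 weeks belonged to Cox16 at -0.79 ± 0.22, Esrrg at 0.42 ± 0.14, Pdk4 at 0.92 ± 0.34, Ckmt2 at 0.81 ± 0.32, Tomm22 at -0.57 ± 0.14 and Ttn at 0.76 ± 0.30, with limma adjusted p from 0.0505 to 0.207. At 10.5 months they belonged to Coq4 at 0.45 ± 0.23, Cox19 at 0.56 ± 0.16, Gabpa at -0.37 ± 0.15, Pdk2 at -0.40 ± 0.18, Ucp3 at -0.27 ± 0.20, Timm8b at 0.58 ± 0.21 and Ldb3 at -0.34 ± 0.22, none called.

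The sarcomere genes are as bright as the subunit genes and are not mitochondrial. Their scaled median was 0.33 at 8 weeks, with 20 of 20 genes above 0, and 0.19 at 10.5 months, with 15 of 20. After quantile normalization it was 0.01 and -0.04. They were above 0 beside the members at both ages on the scaled values, and their part in the members' shift was not tested. The citric acid cycle and pyruvate dehydrogenase genes had medians of 0.20 and 0.04 scaled. At 10.5 months their quantile-normalized median was -0.15, with 18 of 19 genes below 0, while that of the subunit genes was 0.05. The transport and creatine kinase genes stood at -0.08 there, with 10 of 11 genes below 0. The regulators of mitochondrial biogenesis stayed near 0, at 0.02 and -0.04 scaled.

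With age in mdx hearts, the assembly factors Cox19 and Cox16 rose by 1.16 ± 0.16 and 0.78 ± 0.22 on the scaled values (limma adjusted p 0.00228 and 0.0359), and Ssbp1, which binds single-stranded mitochondrial DNA, rose by 1.02 ± 0.21 (adjusted p 0.0114; limma). These were the 2 of 27 assembly factors and the 1 of 23 regulators that passed, all of them higher, where 11.4% of all probe sets passed in either direction. Pdk2, a kinase that shuts off pyruvate dehydrogenase, fell by 0.78 ± 0.18 and Suclg1, of succinyl-CoA ligase, fell by 0.55 ± 0.14 (limma adjusted p 0.0177 and 0.0259). Vdac3, a channel of the outer membrane, rose by 0.65 ± 0.18 (limma adjusted p 0.0352). Suclg1 and Vdac3 did not pass after quantile normalization. Suclg1, Vdac3 and Ssbp1 were named after their values were seen.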

How the data were processed

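RNA of 12 heart samples was hybridised to Affymetrix MOE430A arrays, 1 per sample. The deposited signal intensity of each probe set had been scaled by the authors to a trimmed mean between 1500.6 and 1500.9 per array; the software is not given in the sources used here. Values were brought to a common trimmed mean of 500, and log2(signal + 32) was tested with limma 3.58.1 in R 4.3.3, all 4 groups in 1 fit, on probe sets whose scaled signal averaged 100 or more, with Benjamini-Hochberg adjustment over 14932 probe sets. The offset understates differences of dim probe sets. Quantile normalization was the second scaling. Medians use 1 probe set per gene, the brightest. The procedure was tested on simulated data. Named genes were every called member, the extremes of each complex, complex II, the isoform pairs of complex IV, and the smallest p of each pathway list. Members and lists were chosen with earlier results of these data known. Promoters came from a RefSeq table (GRCm38.p6). The precision is limited by 3 arrays per group. Alternatives comprised other offsets, filters, weights, blocks and each array left out.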

Additional observations from a re-analysis of the deposited data

How the results depend on the processing

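Of 700 medians over the members, a complex or the assembly factors under the alternatives, 43 had the opposite sign to the reported one: 14 of 28 without the arrays of wide range, 11 under quantile normalization, 7 with signal range as a block and 11 on leaving out 1 array. The median over all members turned from 0.19 to -0.21 at 8 weeks and from -0.27 to 0.27 for age in mdx without the arrays of wide range, and to -0.052 and 0.036 under quantile normalization. On quantile-normalized values, member calls were 3 for mdx at 8 weeks and 9 for age in mdx; medians at 10.5 months were 0.046 for all members, 0.015, -0.10, 0.060 and 0.058 for complexes I, II, III and V, and assembly medians were 0.0076 for mdx at 8 weeks, -0.079 for age in controls and 0.11 for age in mdx. With signal range as a block, calls were 0 at 8 weeks and 9 for age in mdx, and medians at 10.5 months were 0.026 for all members and -1.787e-04, -0.10, 0.017, 0.027 and 0.031 for I to V. Without the 4 arrays of wide range, chosen after seeing the data, complex II at 8 weeks was -0.42, complex III and assembly with age in controls were -0.084 and 0.041, and age in mdx gave 0.27 over all members and 0.27, 0.23, 0.30, 0.28 and 0.31 for I to V. Calls at 8 weeks were 2 with an intensity trend or a minimum of 200, and 0 without a filter or with 6 arrays only. Calls for age in mdx were 12 with array weights, 6 with the trend, 7 with the minimum of 200 and 1 with 6 arrays only. The share of all probe sets called is not given here for these settings or for the signal range block. Their counts are therefore not read as results about the members. The assembly median at 8 weeks was -0.11 with array weights or with a gene's probe sets averaged. Leaving out 1 array gave 0 to 4 calls at 8 weeks, where 0.281% to 2.06% of all probe sets passed. It gave 2 to 25 for age in mdx, where 4% to 12.6% of all passed. Both counts were highest without mdx replicate 3 at 8 weeks. The members' shares were then 2.65% and 16.6%, against 1.42% and 12.6% of all. Medians on leaving out 1 array were -0.13 to 0.0076 for assembly at 8 weeks. For complex III with age in controls they were -0.46 to -0.084, lowest in size without control replicate 2 at 8 weeks. For assembly with age in controls they were -0.026 to 0.048.

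The deviations of same-numbered mdx and control arrays from their group means had correlations of -0.13, 0.13 and 0.11 at 8 weeks. At 10.5 months these were 0.02, -0.09 and -0.07. The values do not show a pairing by number, and they are too few to exclude one. With a replicate block, member calls at 8 weeks were 0, and calls over all probe sets 176 in place of 343.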
